A study of Homo sapiens with 16 samples.

Results

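Genes of cholesterol and fatty acid synthesis that are targets or regulators of the sterol regulatory element-binding proteins (SREBPs) were read in 4 cell lines. These are described as breast cancer lines, and there were 16 arrays in 8 groups of 2. The set named 33 genes, and a gene counted as measured when at least 1 probe set was annotated to its symbol alone. Of the 33, 30 were measured among 11963 genes in all, with 17 of 19 in the sterol branch, 5 of 5 regulators and 8 of 9 in the fatty acid branch. FDFT1, CYP51A1 and FADS1 were not analysed here.

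The invasive lines LM24175 and MDA-MB-231 were labelled as carrying a RECK construct or an empty vector, and the series' design describes stable infection with a construct meant for constitutive expression. LM24175 is known to descend from MDA-MB-231 through selection for lung metastasis. The poorly invasive lines Hs606T and Hs343T were transfected with siRNA against RECK or with a scrambled siRNA, and their arrays are called by their labels, siRECK and siSCR. RECK encodes a membrane protein that inhibits matrix metalloproteinases. The labels do not tell separate cultures from repeat arrays. Each p-value covers only the scatter between the 2 arrays of a group, pooled over the 8 groups, and that scatter could be technical.

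SREBPs are membrane-bound transcription factors held in the endoplasmic reticulum by SCAP and the INSIG proteins while sterols are plentiful. When sterols run low they move to the Golgi, are cleaved and enter the nucleus, where they switch on the enzymes of sterol synthesis and those of fatty acid synthesis and desaturation. SREBF2 is best known for driving the sterol enzymes and SREBF1 the fatty acid enzymes, and INSIG1 is both a target and a brake.

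RECK itself was read first, as log2 levels. It read 7.39 and 7.76 in LM24175 with construct, against 7.96 and 8.04 with empty vector, and 7.78 and 7.80 in MDA-MB-231 with construct, against 7.74 and 7.78 with empty vector. The RECK probe set was thus not higher with the construct in LM24175 and overlapped between the groups in MDA-MB-231. Expression of the construct is therefore not shown on these arrays, and "with construct" below names the label only. RECK read 11.17 and 11.02 on the Hs606T arrays labelled siRECK, against 8.74 and 8.65 on those labelled siSCR. It read 11.31 and 11.24 on the Hs343T arrays labelled siRECK, against 6.07 and 5.52 on those labelled siSCR. RECK was thus higher on the arrays labelled siRECK in both lines, which goes against the labels, and each siRNA direction below is that of the labels.

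Array medians lay between 6.42 and 6.57, and the arrays of a group correlated across genes at 0.994 to 0.998. The first RECK array of LM24175 and the first empty-vector array of MDA-MB-231 stood apart from their partners in a shared way, with gaps to the partner that correlated at 0.486 across genes. Among the members these gaps exceeded 0.5 for SREBF1 and SCD on both arrays and for TM7SF2 on the MDA-MB-231 array. Of 8 epithelial markers, 1 was below 5.09, the lower quartile of gene means, in each invasive group (CDH1, the epithelial cadherin). In each group of Hs606T and Hs343T 3 were below it (CDH1, EPCAM and GATA3). The epithelial group medians were 8.37 to 9.09 in the invasive lines and 6.09 to 6.45 in Hs606T and Hs343T. The 9 mesenchymal markers had group medians of 12.46 to 13.06 in Hs606T and Hs343T and of 4.48 to 6.29 in the invasive lines. In each group of Hs606T and Hs343T 0 of them were below the quartile, against 1 to 5 in the invasive groups. By these lists Hs606T and Hs343T thus read as mesenchymal more than epithelial. Of 5 adipocyte genes, ADIPOQ and LEP were below the quartile in every group and LIPE in MDA-MB-231 with empty vector, while the others were not below it. Of 6 leukocyte genes, PTPRC, MS4A1 and CD163 were below it in every group and CD3D in the empty-vector groups, while the others were not.

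Promoters, as the 250 bases before each gene's start, were available from RefSeq (GRCh38.p14) for 27 of the 30 members. The 6 printed here belong to INSIG1, MSMO1, SC5D, HMGCS1 and SCD, which carried the line and construct results, and to SREBF2. Capitals mark matches on either strand to the sterol regulatory element letters CACNCCAC, or TCACNCCAC where the longer form matched, and to the CCAAT box. They lie at chr7:155297628-155297877 (INSIG1), chr4:165327419-165327668 (MSMO1), chr11:121292521-121292770 (SC5D), chr10:100346983-100347232 (SCD) and chr22:41832855-41833104 (SREBF2) on the plus strand, and at chr5:43313413-43313662 (HMGCS1) on the minus strand.
INSIG1: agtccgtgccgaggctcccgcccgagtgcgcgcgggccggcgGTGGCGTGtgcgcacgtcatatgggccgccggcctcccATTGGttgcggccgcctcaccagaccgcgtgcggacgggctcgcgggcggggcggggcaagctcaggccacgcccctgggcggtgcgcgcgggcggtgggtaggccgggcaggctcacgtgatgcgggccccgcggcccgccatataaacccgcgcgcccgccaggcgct
MSMO1: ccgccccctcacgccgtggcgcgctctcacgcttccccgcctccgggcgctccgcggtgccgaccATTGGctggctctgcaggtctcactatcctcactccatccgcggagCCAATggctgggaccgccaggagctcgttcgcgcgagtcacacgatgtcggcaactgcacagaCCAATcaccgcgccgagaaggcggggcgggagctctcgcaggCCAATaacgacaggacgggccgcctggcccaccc
SC5D: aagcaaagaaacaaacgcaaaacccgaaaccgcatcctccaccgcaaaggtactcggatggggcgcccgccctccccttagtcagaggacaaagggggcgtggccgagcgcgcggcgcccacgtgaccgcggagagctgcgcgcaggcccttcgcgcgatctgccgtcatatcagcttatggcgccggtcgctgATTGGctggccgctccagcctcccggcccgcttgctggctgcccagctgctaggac
HMGCS1: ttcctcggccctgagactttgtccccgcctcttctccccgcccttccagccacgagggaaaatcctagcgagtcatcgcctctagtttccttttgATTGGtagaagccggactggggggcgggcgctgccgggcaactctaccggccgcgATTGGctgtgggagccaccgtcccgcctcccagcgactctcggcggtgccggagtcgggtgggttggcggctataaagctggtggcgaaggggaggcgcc
SCD: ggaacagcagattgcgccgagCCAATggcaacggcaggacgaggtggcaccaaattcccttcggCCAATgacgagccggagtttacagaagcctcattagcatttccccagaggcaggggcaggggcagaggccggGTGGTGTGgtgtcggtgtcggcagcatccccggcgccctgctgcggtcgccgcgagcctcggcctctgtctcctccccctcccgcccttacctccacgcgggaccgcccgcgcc
SREBF2: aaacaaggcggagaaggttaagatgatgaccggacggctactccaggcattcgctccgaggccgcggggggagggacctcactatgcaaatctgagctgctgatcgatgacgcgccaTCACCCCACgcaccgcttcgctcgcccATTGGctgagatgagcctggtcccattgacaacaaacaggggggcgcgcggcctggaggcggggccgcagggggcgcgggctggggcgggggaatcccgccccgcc
CACNCCAC occurred in 3 of the 27 member promoters (11.1%: SREBF2, INSIG1 and SCD), against 4.9% of 9563 promoters of measured genes. TCACNCCAC, which contains it, occurred in SREBF2 alone (3.7%), against 0.816%. CCAAT occurred in 17 (63%), against 35.6%, the GC box GGGCGG in 24 (88.9%), against 60.6%, and the E-box CACGTG in 4 (14.8%), against 8.34%. The member promoters had a median GC content of 67.2%, against 63.6%. A match describes these letters and not binding.

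In empty-vector cells, most of the module was higher in LM24175 than in MDA-MB-231. Of the 30 members, 18 were higher and 2 lower in LM24175 by limma at an adjusted p below 0.05, a call met by 20.8% of all genes (9.87% higher, 10.9% lower). The median member differed by 0.46 log2 units, against -0.01 over all genes. In the sterol branch 11 of 17 were higher and 0 lower, among the regulators 2 of 5 were higher and 1 lower, and in the fatty acid branch 5 of 8 were higher and 1 lower.

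MSMO1, the sterol methyl oxidase, read 12.03 and 11.93 in LM24175 with empty vector, against 10.79 and 10.73 in MDA-MB-231 with empty vector. Both LM24175 arrays were above both MDA-MB-231 arrays, by 1.22 on the log2 scale (SE 0.09, 2.34-fold, adjusted p = 3.40e-06). HMGCS1, which makes HMG-CoA at the head of the pathway, read 8.51 and 8.76 in LM24175, against 7.61 and 7.61 in MDA-MB-231 (1.02, SE 0.12, adjusted p = 1.27e-04). LSS, the lanosterol synthase, read 10.32 and 10.26 in LM24175, against 9.32 and 9.38 in MDA-MB-231 (0.94, adjusted p = 4.57e-06). The arrays of the 2 lines did not overlap for any of these 3 enzymes. Members that did not pass could also lack overlap, such as ELOVL5 (0.05) and ACLY (0.11). Here and below, overlap was not counted over all genes.

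FDPS, the farnesyl diphosphate synthase, was higher by 0.82, SC5D and DHCR7, the late desaturase and the last reductase, each by 0.81, and EBP, a sterol isomerase, by 0.71. IDI1, the isopentenyl diphosphate isomerase, was higher by 0.68 and SQLE, the squalene epoxidase, by 0.58. ACAT2, the acetoacetyl-CoA thiolase, was higher by 0.47 and HSD17B7, a sterol keto reductase, by 0.33. Other probe sets of SC5D (0.12), SQLE (0.43 and 0.13) and EBP (0.19) did not pass. Those of DHCR7 (0.77) and IDI1 (0.64) and another of EBP (0.68) passed. SCD, the stearoyl-CoA desaturase, read 12.11 and 12.13 in LM24175, against 10.74 and 11.52 in MDA-MB-231 (0.99, SE 0.30, adjusted p = 0.0349), and the difference was 0.60 without the first MDA-MB-231 array and 1.39 without the second. FASN, the fatty acid synthase, was higher by 0.60, although its dimmer second probe set differed by -0.12 (adjusted p = 0.617). ELOVL6, an elongase, was higher by 0.58, FADS2, a desaturase, by 0.45 and ACACA, the acetyl-CoA carboxylase, by 0.39. LPIN1, a phosphatidate phosphatase, differed by -0.49. Without the first or the second MDA-MB-231 array the difference was 0.83 or 0.33 for SQLE, 0.69 or 0.25 for ACAT2 and -0.66 or -0.31 for LPIN1. With 1 array left out, ACACA differed by 0.34 to 0.44 and FADS2 by 0.33 to 0.58. ACACA lost its call in every such fit. SQLE, ACAT2, LPIN1, FADS2, SCD and SREBF2 lost theirs in most of these fits, and HSD17B7 in 1. Of the 20 calls, 12 were kept whichever 1 array was left out. The count was 16 and 17 without the first or second MDA-MB-231 array, and 13 and 12 without the first or second LM24175 array. ATF4 targets, genes of the amino acid response, were also higher in LM24175 for 6 of 12 (list median 0.48), and their part in the member values was not tested.

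The construct responses use the same empty-vector arrays as that baseline, so each is given with its own values. In LM24175, 11 of 30 members fell and 3 rose with the RECK construct, where 6.7% of all genes were called (3.27% lower, 3.44% higher). The median member differed by -0.38, against 0.00 over all genes. In the sterol branch 7 of 17 fell and 2 rose, in the fatty acid branch 4 of 8 fell, and of the 5 regulators 1 rose.

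SCD read 9.97 and 11.15 in LM24175 with construct, against 12.11 and 12.13 with empty vector. Both construct arrays were lower, the deviating first array most. The difference was -1.56 (SE 0.30, 2.95-fold lower, 95% interval 1.87 to 4.64, adjusted p = 0.00915), and 3 other SCD probe sets differed by -1.51, -0.86 and -0.82 and passed. It was -0.97 without the first RECK array (adjusted p = 0.0414), and without the first or second empty-vector array the adjusted p was 0.0671 or 0.0707.

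FASN read 7.59 and 7.63 in LM24175 with construct, against 8.67 and 8.70 with empty vector (-1.08, SE 0.08, adjusted p = 9.87e-05). Both construct arrays were lower, by 2.11-fold, while the second probe set differed by -0.08 (adjusted p = 0.843). ACACA, which supplies malonyl-CoA to FASN, read 8.77 and 9.05 with construct, against 9.56 and 9.66 with empty vector (-0.70, adjusted p = 0.00379). FADS2 fell by 0.52, a call lost in 3 of the 4 fits that left out 1 array, and the difference was -0.31 (adjusted p = 0.107) without both deviating arrays. The other members of the branch did not pass: LPIN1 at -0.45, ELOVL6 at -0.29, ACLY, the ATP citrate lyase, at -0.24 and ELOVL5, an elongase of polyunsaturated chains, at -0.10.

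In the sterol branch HMGCS1 read 7.85 and 7.83 in LM24175 with construct, against 8.51 and 8.76 with empty vector (-0.79, SE 0.12, adjusted p = 0.00285). DHCR7 read 8.65 and 8.60 with construct, against 9.45 and 9.35 with empty vector (-0.77, adjusted p = 4.65e-04). MSMO1 read 11.16 and 11.41 with construct, against 12.03 and 11.93 with empty vector (-0.70, adjusted p = 9.72e-04). In these 3 the groups did not overlap. FDPS fell by 0.63, LSS by 0.55, LRP8, a lipoprotein receptor, by 0.39 and HSD17B7 by 0.32. The other LSS probe sets differed by -0.35 and -0.21 without passing, while those of HMGCS1 (-1.0), DHCR7 (-0.83) and LRP8 (-0.43) passed. TM7SF2, a sterol reductase, differed by -0.48, SQLE by -0.47, ACAT2 by -0.36 and IDI1 by -0.29 without passing. Without both deviating arrays TM7SF2 differed by -0.23, SQLE by -0.62 (adjusted p = 0.00211) and ACAT2 by -0.51 (adjusted p = 0.032). Of 9 mesenchymal markers, COL1A2 (2.20) and COL3A1 (1.52) rose with the construct in LM24175, and their part in the member values was not tested.

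NSDHL and EBP, which act on the sterol ring between lanosterol and cholesterol, rose in LM24175. NSDHL read 9.11 and 8.97 with construct, against 8.37 and 8.47 with empty vector (0.62, adjusted p = 0.00247). EBP read 10.61 and 10.69 with construct, against 10.10 and 10.15 with empty vector (0.53, adjusted p = 0.00379). Every construct array of both genes was above every empty-vector array. Of the 14 calls, 9 were kept whichever 1 array was left out: ACACA, DHCR7, EBP, FASN, FDPS, HMGCS1, LSS, MSMO1 and NSDHL. The count was 9 with either empty-vector array left out, 10 with RECK array 1 left out and 15 with RECK array 2 left out.

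In MDA-MB-231, 5 of 30 members rose and 0 fell with the construct, where 0.276% of all genes were called (0.226% higher, 0.0502% lower). An unadjusted p below 0.05 was met by 15 members, and by 1387 of all 11963 genes. The median member differed by 0.31, against 0.01 over all genes. MSMO1 read 11.48 and 11.56 with construct, against 10.79 and 10.73 with empty vector (0.77, SE 0.09, 1.70-fold, adjusted p = 0.0174). SC5D read 9.71 and 9.70 with construct, against 9.07 and 9.03 with empty vector (0.65, SE 0.09, adjusted p = 0.0174). In both genes all construct arrays were higher.

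LRP8 read 8.76 and 8.76 in MDA-MB-231 with construct, against 8.24 and 8.19 with empty vector (0.54, adjusted p = 0.0235). DHCR7 read 9.11 and 9.12 with construct, against 8.57 and 8.61 with empty vector (0.52, adjusted p = 0.0362). INSIG1 rose by 0.73 (SE 0.11, adjusted p = 0.0268). By limma the second probe sets of DHCR7 (0.51, adjusted p = 0.0594), LRP8 (0.32, adjusted p = 0.173) and SC5D (0.18, adjusted p = 0.673) did not pass. Of the other INSIG1 probe sets, 1 differed by 0.56 without passing (adjusted p = 0.173) and 1 by 0.79, which passed (adjusted p = 0.0165). None of the 5 calls was kept in all 4 fits that left out 1 array. The count was 0 with RECK array 1 left out, 3 with RECK array 2 or empty-vector array 1 left out, and 11 with empty-vector array 2 left out. With both deviating arrays left out, MSMO1 differed by 0.79, INSIG1 by 0.77, SC5D by 0.67, LRP8 by 0.57 and DHCR7 by 0.50.

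In the fatty acid branch of MDA-MB-231 0 of 8 passed, and 5 had an unadjusted p below 0.05, as did 1387 of all 11963 genes. SCD read 12.12 and 12.20 with construct, against 10.74 and 11.52 with empty vector. Its difference was 1.03 (95% interval 0.37 to 1.68, adjusted p = 0.218), and 0.64 (adjusted p = 0.00564) without both deviating arrays. LPIN1 differed by 0.64, ELOVL6 by 0.35, FADS2 by 0.32, FASN by 0.31, ACACA by 0.24, ACLY by 0.16 and ELOVL5 by -0.00. Of the sterol genes that did not pass, HMGCS1 differed by 0.53 (95% interval 0.26 to 0.80), IDI1 by 0.39, LSS and SQLE by 0.37, TM7SF2 by 0.34 and FDPS by 0.27. Without both deviating arrays TM7SF2 turned sign, at -0.06, and SQLE differed by 0.62 (adjusted p = 0.00943). Of the 12 ATF4 targets, 2 rose with the construct in MDA-MB-231 (PSAT1 by 0.95, MTHFD2 by 0.62), with a list median of 0.80. Their part in the member values was not tested.

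**Figure D1:**
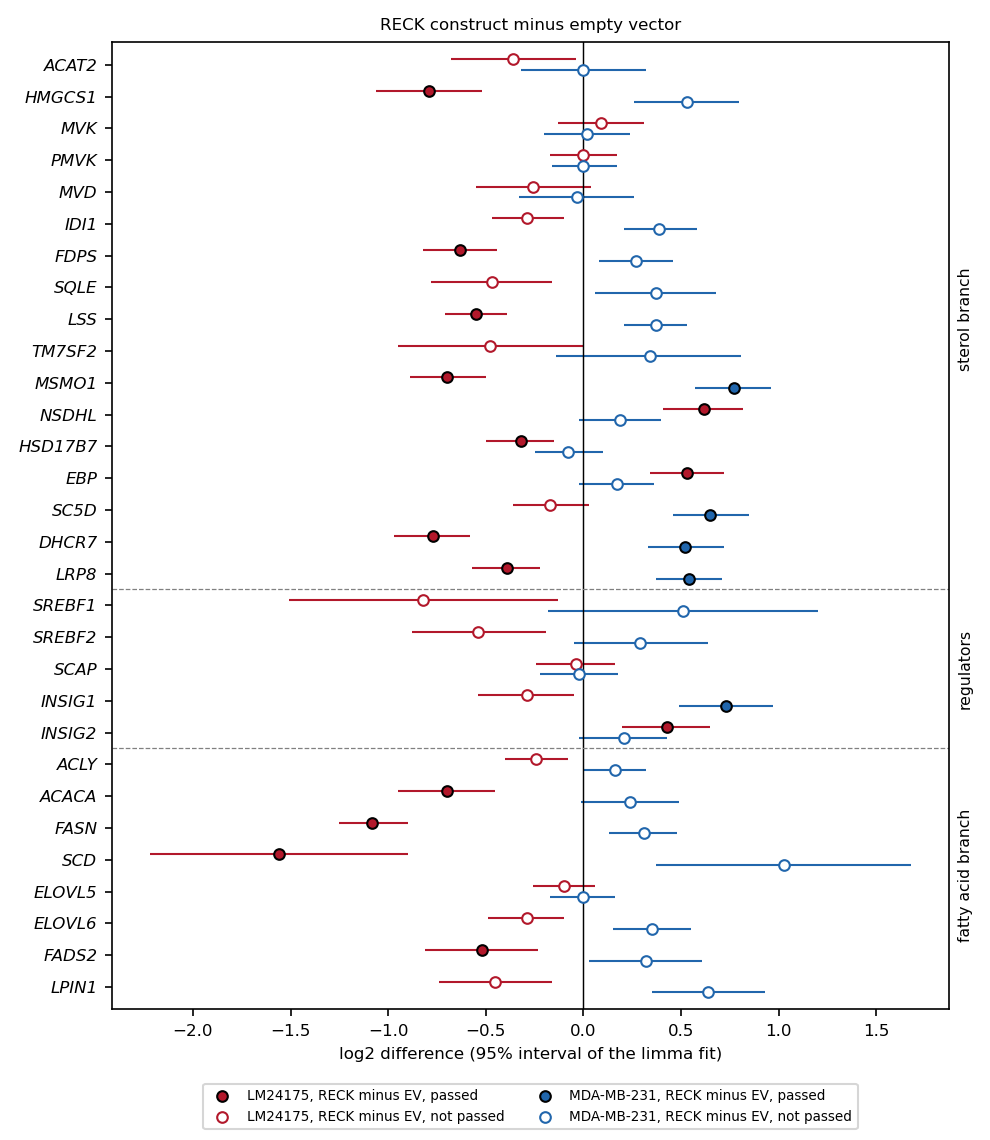
Log2 difference, RECK construct minus empty vector, for the 30 members in LM24175 (upper point of each pair) and MDA-MB-231 (lower point). Bars are 95% intervals of the limma fit and filled points passed at an adjusted p below 0.05: 14 in LM24175, of which 11 lie left of 0, and 5 in MDA-MB-231, right of 0.

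The difference between the 2 construct responses was tested as an interaction. LM24175 minus MDA-MB-231 was lower for 16 of 30 members and higher for 0, where 3.64% of all genes were called (1.99% lower, 1.65% higher). The median was -0.83, against -0.01 over all genes. With both deviating arrays left out, 15 of the 16 still passed, and 11 passed whichever 1 array was left out. SCD differed by -2.59 (SE 0.42, adjusted p = 0.00812), and by -1.61 without both deviating arrays. Without them LPIN1 differed by -0.73 and FADS2 by -0.50 (adjusted p = 0.102). Other lists differed in the same test. ATF4 targets were negative in 12 of 12 (median -0.71, 1 called). Of them 9 had an unadjusted p below 0.05, as did 2264 of all 11963 genes. Of 9 mesenchymal markers 3 were called (COL1A2 at 2.34, COL3A1 at 1.58 and FN1 at -1.44). The part of these lists in the member values was not tested.

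Among the sterol enzymes the response differed by -1.46 for MSMO1 (adjusted p = 6.30e-04), -1.32 for HMGCS1, -1.30 for DHCR7, -0.92 for LSS, -0.90 for FDPS, -0.84 for SQLE, -0.82 for SC5D and -0.68 for IDI1, and by -0.93 for LRP8. In the fatty acid branch it differed by -1.39 for FASN (adjusted p = 6.30e-04), -1.10 for LPIN1, -0.94 for ACACA, -0.84 for FADS2 and -0.64 for ELOVL6. The second probe set of FASN differed by -0.06 (adjusted p = 0.911), that of SC5D by -0.04 (adjusted p = 0.949) and 1 of SQLE by 0.23 (adjusted p = 0.75), and the others of SCD, INSIG1, HMGCS1 and ACACA were negative and passed. MVK, the mevalonate kinase, differed by 0.07 (95% interval -0.24 to 0.38), PMVK, the kinase after it, by -0.01 (-0.25 to 0.23), MVD, the decarboxylase after that, by -0.23 (-0.64 to 0.19) and ELOVL5 by -0.10 (-0.33 to 0.14).

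With the RECK construct in both lines, LM24175 was higher than MDA-MB-231 for 2 of 30 members and lower for 8, where 24.9% of all genes were called (10.8% higher, 14.1% lower), and the median was -0.17. In the sterol branch IDI1 differed by 0.00 (95% interval -0.18 to 0.18), LSS by 0.03 (-0.13 to 0.19), SC5D by -0.01 (-0.21 to 0.18) and FDPS by -0.08 (-0.26 to 0.11). These 4 intervals span 0 and lie below the differences of the same genes with empty vector, which were 0.68, 0.94, 0.81 and 0.82. HMGCS1 differed by -0.30 (-0.57 to -0.03, adjusted p = 0.104) and MSMO1 by -0.24 (adjusted p = 0.0784). EBP was higher by 1.07 and NSDHL by 0.66, while TM7SF2 differed by -0.87, LRP8 by -0.79 and DHCR7 by -0.49. With 1 array left out TM7SF2 differed by -1.11 to -0.63, and it lost its call in 2 of these 4 fits.

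In the fatty acid branch 5 of 8 were lower in LM24175 with construct than in MDA-MB-231 with construct, and 0 higher. SCD differed by -1.60 (SE 0.30, adjusted p = 0.00223), and by -1.01 without both deviating arrays. LPIN1 read 8.97 and 9.36 in LM24175 with construct, against 10.82 and 10.68 in MDA-MB-231 with construct (-1.59, adjusted p = 7.92e-06), with no overlap. FASN differed by -0.79, ACACA by -0.55 and ACLY by -0.28, a call that ACLY lost in 3 of the 4 fits that left out 1 array.

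**Figure D2:**
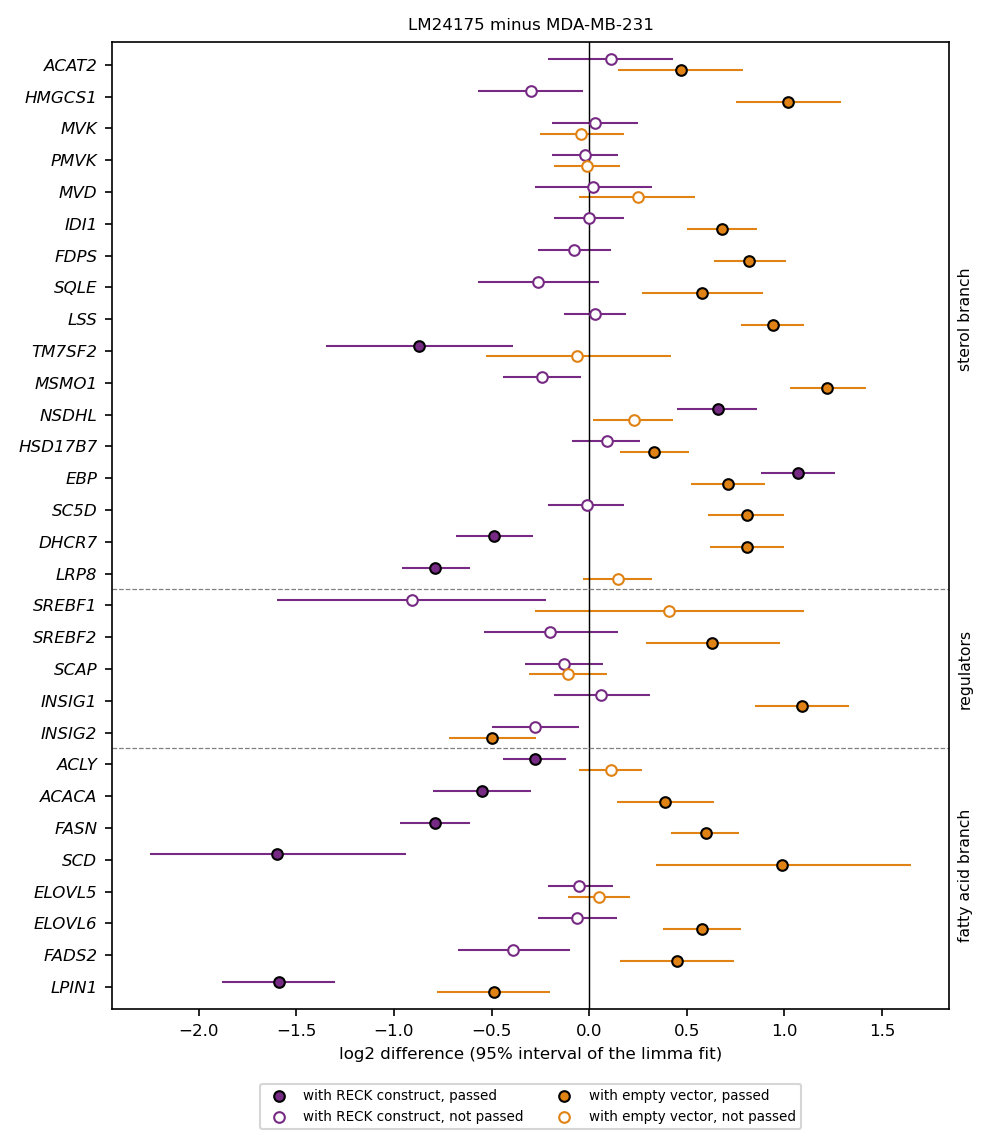
Log2 difference, LM24175 minus MDA-MB-231, for the 30 members with the RECK construct (upper point of each pair) and with empty vector (lower point). Bars are 95% intervals of the limma fit and filled points passed. LSS lies at 0.03 with construct and 0.94 with empty vector, and SCD at -1.60 with construct and 0.99 with empty vector.

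Over the 4 invasive groups, 11 of 17 sterol genes had their highest mean in LM24175 with empty vector and 10 their lowest in MDA-MB-231 with empty vector. Of 8 fatty acid genes, 5 had their highest mean in LM24175 with empty vector and 3 in MDA-MB-231 with construct, and 7 had their lowest in LM24175 with construct. Such counts were not made over all genes, and they reuse the group means of the comparisons above. Averaged over its 17 genes, the sterol branch read 9.12 and 9.19 in LM24175 with construct, against 9.44 and 9.45 with empty vector, and 9.23 and 9.21 in MDA-MB-231 with construct, against 8.95 and 8.89 with empty vector. Averaged over its 8 genes, the fatty acid branch read 9.82 and 10.09 in LM24175 with construct, against 10.55 and 10.59 with empty vector, and 10.63 and 10.61 in MDA-MB-231 with construct, against 10.15 and 10.33 with empty vector. Within each line and branch the construct arrays did not overlap the empty-vector arrays.

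**Figure D3:**
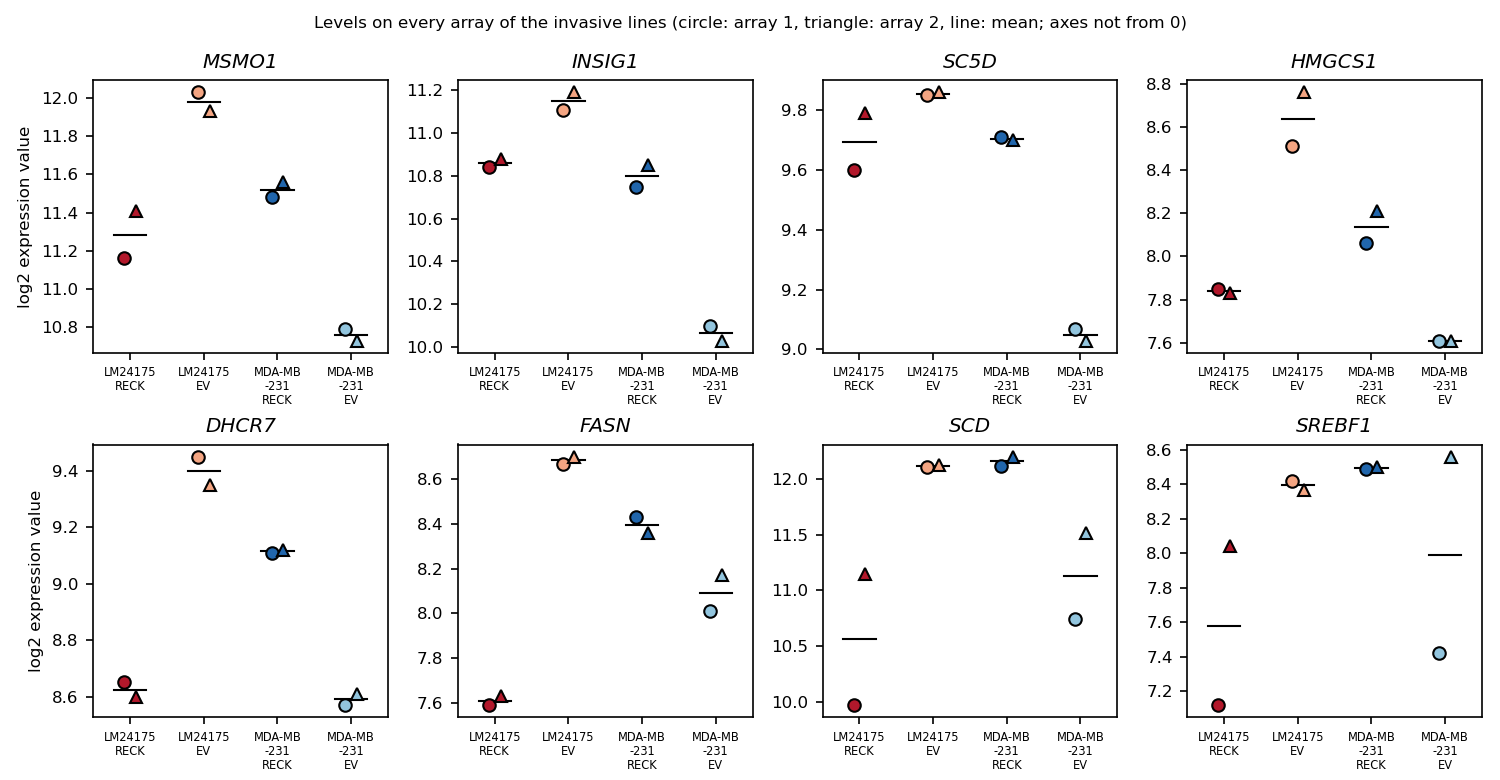
Log2 levels of 8 members on the arrays of the invasive lines with RECK construct or empty vector (EV). Circles are array 1, triangles array 2 and lines means. MSMO1, INSIG1, SC5D and HMGCS1 are lowest in MDA-MB-231 with empty vector and FASN in LM24175 with construct, and the wide pairs of SCD and SREBF1 are the deviating arrays (circles) and their partners.

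**Figure D4:**
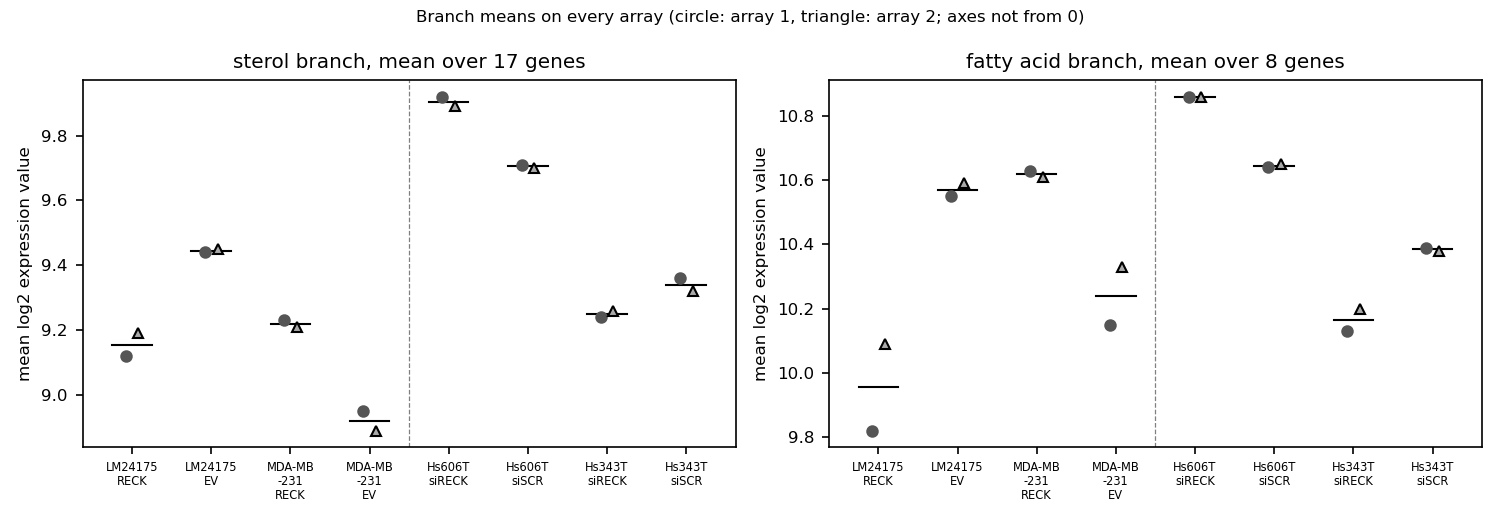
Mean log2 level over 17 sterol genes and 8 fatty acid genes on each of the 16 arrays, with circles for array 1, triangles for array 2 and lines for group means. In the invasive lines the sterol mean is highest in LM24175 with empty vector (9.44 and 9.45), and the fatty acid mean is lowest in LM24175 with construct (9.82 and 10.09).

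The regulators were read on every array. SREBF1 read 7.12 and 8.04 in LM24175 with construct, against 8.42 and 8.37 with empty vector, and 8.49 and 8.50 in MDA-MB-231 with construct, against 7.42 and 8.56 with empty vector. The low value of each pair came from the deviating array, and neither response passed (-0.82, adjusted p = 0.169, and 0.51, adjusted p = 0.563). Without both deviating arrays the responses were -0.36 in LM24175 and -0.06 in MDA-MB-231.

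SREBF2 read 7.30 and 7.65 in LM24175 with construct, against 8.04 and 7.98 with empty vector, and 7.59 and 7.75 in MDA-MB-231 with construct, against 7.13 and 7.62 with empty vector. It was higher in LM24175 than in MDA-MB-231 with empty vector by 0.63 (adjusted p = 0.0134), but the call was lost in 3 of the 4 fits that left out 1 array, and the difference was 0.39 without the first MDA-MB-231 array and 0.88 without the second. Its construct responses did not pass (-0.54 in LM24175, adjusted p = 0.0674, and 0.29 in MDA-MB-231, adjusted p = 0.506), and were -0.36 in LM24175 and 0.05 in MDA-MB-231 without both deviating arrays. SCAP, the escort of the SREBPs, read between 8.97 and 9.25 on the 8 arrays of the invasive lines and did not differ past the threshold in any of their comparisons.

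INSIG1 read 10.84 and 10.88 in LM24175 with construct, against 11.11 and 11.19 with empty vector, and 10.75 and 10.85 in MDA-MB-231 with construct, against 10.10 and 10.03 with empty vector. It was thus lowest in MDA-MB-231 with empty vector, 1.09 below LM24175 with empty vector (adjusted p = 3.39e-05), its construct response in LM24175 was -0.29 (adjusted p = 0.16), and its response differed between the lines by -1.03 (adjusted p = 0.00631). INSIG2 read 8.62 and 8.64 in LM24175 with construct, against 8.21 and 8.19 with empty vector (0.43, adjusted p = 0.0293), and 8.97 and 8.84 in MDA-MB-231 with construct, against 8.58 and 8.82 with empty vector (0.21, adjusted p = 0.467). The INSIG2 call with construct in LM24175 was lost in each of the 4 fits that left out 1 array. With empty vector INSIG2 was lower in LM24175 than in MDA-MB-231 (-0.50, adjusted p = 0.00453), the opposite side from INSIG1.

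Other lipid genes outside the set were read with the construct too. In LM24175 limma called 6.7% of all genes (3.27% lower, 3.44% higher), and 10.5%, 15.8% and 14.3% of the 3 lists below, in their order. Of 19 other sterol and isoprenoid genes, GGPS1 fell (-0.42) and DHDDS, named after its value was seen, rose (0.39) in LM24175. Of 19 other fatty acid and glycerolipid genes, FADS3 (-0.59), the citrate carrier SLC25A1 (-0.59) and DGAT1 (-0.56), which makes triglyceride, fell there. Of 14 genes of lipid uptake, storage and oxidation, the fatty acid carrier FABP4 (-1.65) and the lipoprotein lipase LPL (-1.09) fell. FABP4 read 5.03 and 5.22 in LM24175 with construct, against 6.69 and 6.86 with empty vector. In MDA-MB-231, where 0.276% of all genes were called, limma called 0 genes in each of these 3 lists. An unadjusted p below 0.05 was met by 1, 2 and 2 of their genes, and by 1387 of all 11963 genes. With empty vector, LM24175 was higher than MDA-MB-231 for 2 and lower for 0 of the other sterol and isoprenoid genes, higher for 7 and lower for 1 (TECR, -0.61) of the other fatty acid genes, and higher for 3 and lower for 1 (HADHA, -0.36) of the uptake genes, where 20.8% of all genes were called. The list medians were 0.09, 0.08 and 0.11. The called genes with the largest differences were FABP4 (1.58), ACSL4 (1.06), FABP5 (0.96), PPARG (0.92), LPL (0.72) and FADS3 (0.66), and TECR and HADHA were named after their values were seen.

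In Hs606T, 2 of 30 members were higher and 0 lower on the arrays labelled siRECK, where 1.2% of all genes were called (0.811% higher, 0.385% lower), and the median was 0.16. ACAT2 read 10.71 and 10.46 on the arrays labelled siRECK, against 9.81 and 9.94 on those labelled siSCR (0.71, SE 0.15, adjusted p = 0.0414). EBP read 9.63 and 9.71 on the arrays labelled siRECK, against 9.30 and 9.20 on those labelled siSCR (0.42, adjusted p = 0.0414). Neither pair overlapped, and neither call was kept with any 1 of the 4 arrays left out, when the count was 0 each time. HMGCS1 differed by 0.06 (95% interval -0.21 to 0.33). SCD read 12.85 and 12.88 on the Hs606T arrays labelled siRECK, against 12.36 and 12.40 on those labelled siSCR, with no overlap. Its difference was 0.48 (-0.17 to 1.14, adjusted p = 0.598), and with both deviating arrays of the invasive lines left out of the fit the same difference had an adjusted p of 0.00316.

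In Hs343T, 3 of 30 members were higher and 7 lower on the arrays labelled siRECK, where 29.3% of all genes were called (12% higher, 17.4% lower), so the members' share was near that of all genes. The median was -0.11, against -0.06 over all genes. HMGCS1 read 9.17 and 9.37 on the arrays labelled siRECK, against 8.29 and 8.15 on those labelled siSCR (1.05, SE 0.12, 2.07-fold, adjusted p = 4.07e-05), with no overlap and a second probe set at 0.74. HSD17B7 was higher by 0.37 and IDI1 by 0.31. IDI1 lost its call in 3 of the 4 fits that left out 1 array, and its second probe set differed by 0.21 without passing.

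PMVK read 8.86 and 8.85 on the Hs343T arrays labelled siRECK, against 9.60 and 9.57 on those labelled siSCR (-0.73, adjusted p = 1.75e-05). EBP read 8.85 and 8.72 on the arrays labelled siRECK, against 9.50 and 9.34 on those labelled siSCR (-0.64, adjusted p = 1.23e-04). Both enzymes were lower without overlap. DHCR7 differed by -0.40 and INSIG1 by -0.35, with the other INSIG1 probe sets at 0.11 and -0.32. INSIG1 lost its call in each of the 4 fits that left out 1 array. In the fatty acid branch ELOVL5 differed by -0.79, ACACA by -0.77 and FASN by -0.45, but other probe sets gave 0.13 and 0.52 (adjusted p = 0.00325) for ELOVL5, -0.05 for ACACA and 0.12 for FASN.

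Interferon-stimulated genes were higher on the arrays labelled siRECK for 14 of 14 in Hs606T (median 1.75) and 14 of 14 in Hs343T (median 6.82). In Hs343T 13 of 15 proliferation genes and 9 of 12 ATF4 targets were lower. The other lipid lists were called no more often than all genes in Hs343T (29.3%): 5 of 19 other sterol and isoprenoid genes (26.3%), 5 of 19 other fatty acid and glycerolipid genes (26.3%) and 1 of 14 genes of uptake, storage and oxidation (7.14%). Of these, CH25H, the interferon-inducible cholesterol hydroxylase, read 9.34 and 9.56 on the Hs343T arrays labelled siRECK, against 5.65 and 5.38 on those labelled siSCR (3.93). SOAT1, which esterifies cholesterol, was higher there by 1.47, and PLIN2 (-1.30), TMEM97 (-1.22), PDSS1 (-1.21) and PPARG (-0.85) were lower. The part of these lists in the member values was not tested.

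**Figure D5:**
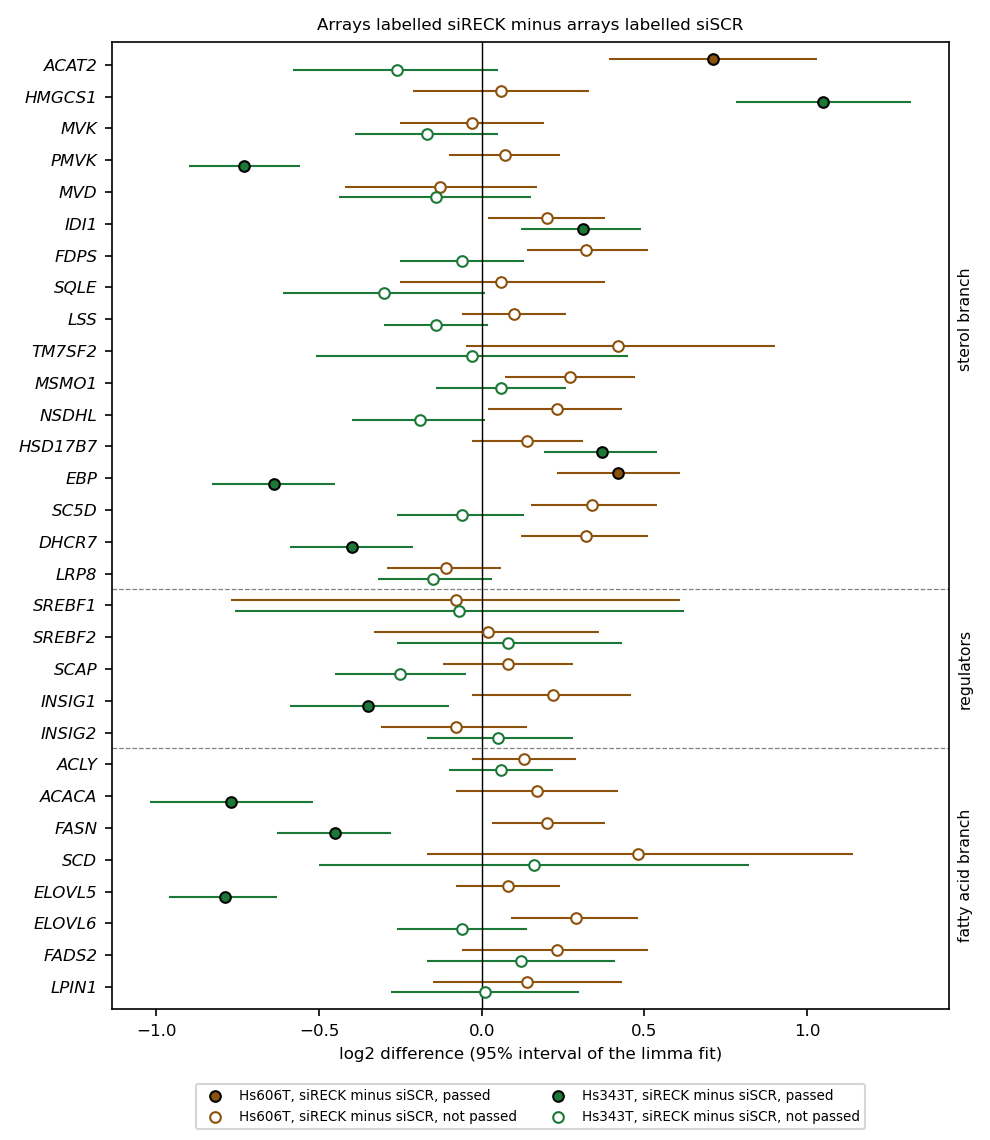
Log2 difference, arrays labelled siRECK minus arrays labelled siSCR, for the 30 members in Hs606T (upper point of each pair) and Hs343T (lower point), with 95% intervals of the limma fit and filled points for those that passed. HMGCS1 lies at 0.06 in Hs606T and 1.05 in Hs343T, and EBP at 0.42 in Hs606T and -0.64 in Hs343T.

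The siRNA responses differed between the lines for 12 of 30 members, with Hs606T minus Hs343T higher for 11 and lower for 1, where 20.4% of all genes were called (11.6% higher, 8.72% lower). In the same test interferon-stimulated genes were lower for 14 of 14, proliferation genes higher for 11 of 15 and ATF4 targets higher for 5 of 12. In the sterol branch the response differed by 1.06 for EBP (adjusted p = 6.97e-05), 0.97 for ACAT2, 0.79 for PMVK, 0.72 for DHCR7, 0.42 for NSDHL, 0.40 for SC5D, 0.38 for FDPS and -0.99 for HMGCS1 (adjusted p = 0.00157). It differed by 0.94 for ACACA, 0.87 for ELOVL5, 0.66 for FASN and 0.56 for INSIG1. For ELOVL5 and SC5D the other probe sets were negative, at -0.12 and -0.28 and at -0.22, without passing, and of those of INSIG1 1 was at -0.06 and 1 at 0.52, which passed. The second probe sets of HMGCS1 (-0.44), ACACA (0.31), NSDHL (0.26) and FASN (0.18) had the same sign and did not pass. INSIG1 differed by 0.36 without the first Hs606T array labelled siRECK and by 0.77 without the second. With 1 array left out, NSDHL differed by 0.32 to 0.51, SC5D by 0.30 to 0.51 and FDPS by 0.35 to 0.42. FDPS lost its call in every such fit, and NSDHL, SC5D and INSIG1 lost theirs in most.

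On the arrays labelled siSCR, 13 of 30 members were higher and 4 lower in Hs606T than in Hs343T. Of all genes 36.8% were called (18.4% higher, 18.5% lower). The siRNA response of each line uses the siSCR arrays of that line too. The sterol branch held 10 of the 13. HMGCS1 read 9.70 and 9.69 in Hs606T, against 8.29 and 8.15 in Hs343T (1.48, adjusted p = 2.35e-06), and LSS read 10.98 and 11.00 in Hs606T, against 10.14 and 10.12 in Hs343T (0.86). IDI1 was higher by 0.91, ACAT2 by 0.81, SC5D by 0.68, FDPS by 0.66, SQLE by 0.63, NSDHL by 0.41, MSMO1 by 0.40 and HSD17B7 by 0.25. ACACA was higher by 0.63, although its second probe set differed by -0.26 (adjusted p = 0.0498), and LPIN1 was higher by 0.61. PMVK differed by -0.52 and MVK by -0.34. Of the 4 fits that left out 1 array, HSD17B7 lost its call in 4, MVK in 3 and NSDHL in 1. In the same comparison proliferation genes were lower in Hs606T for 15 of 15 (median -1.79) and interferon-stimulated genes higher for 12 of 14 (median 1.04). The 3′ minus 5′ difference of the ACTB probe sets, a sign of RNA quality, was 1.16 and 1.33 in Hs606T, against 1.55 and 1.49 in Hs343T. The part of these in the member values was not tested.

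Of the regulators in these lines, INSIG1 read 12.83 and 12.43 on the Hs606T arrays labelled siRECK, against 12.41 and 12.42 on those labelled siSCR, and 10.98 and 11.05 on the Hs343T arrays labelled siRECK, against 11.37 and 11.36 on those labelled siSCR. Every Hs606T array was above every Hs343T array, and with siSCR the lines differed by 1.05 (adjusted p = 1.61e-05). INSIG2 read 8.52 and 8.55 on the Hs606T arrays labelled siRECK, against 8.69 and 8.55 on those labelled siSCR, and 9.00 and 9.13 on the Hs343T arrays labelled siRECK, against 9.11 and 8.92 on those labelled siSCR. SCAP read 9.01 and 9.05 on the Hs606T arrays labelled siRECK, against 8.94 and 8.97 on those labelled siSCR, and 9.17 and 8.99 on the Hs343T arrays labelled siRECK, against 9.29 and 9.38 on those labelled siSCR. With siSCR, INSIG2 (-0.40) and SCAP (-0.38) were lower in Hs606T than in Hs343T. Of the 4 fits that left out 1 array, INSIG2 lost this call in 2 and SCAP in 1.

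SREBF1 read 7.95 and 8.05 on the Hs606T arrays labelled siRECK, against 8.02 and 8.15 on those labelled siSCR, and 7.76 and 7.84 on the Hs343T arrays labelled siRECK, against 7.99 and 7.75 on those labelled siSCR. SREBF2 read 7.82 and 7.93 on the Hs606T arrays labelled siRECK, against 7.90 and 7.82 on those labelled siSCR, and 7.54 and 7.75 on the Hs343T arrays labelled siRECK, against 7.66 and 7.46 on those labelled siSCR. The arrays overlapped between siRNA labels for both factors in both lines, and their siRNA differences lay between -0.08 and 0.08.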

How the data were processed

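RNA was hybridised to Affymetrix U133 2.0 arrays, 1 per sample. The authors deposited log2 expression values per probe set, made in Partek per the submitters' processing notes. The log base was read from the range of the values, and the version, summary method and scaling were not given in the sources used here. Of 22277 probe sets, 19070 named 1 symbol, 1043 several and 2164 none. Control probe sets were left out, 19064 were used, and the probe set with the highest mean stood for each of 11963 genes. Of the members, 11 had 1 probe set and 19 had more.

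Groups came from the sample titles. One linear model with 8 group means was fitted over the 16 arrays (limma 3.58.1 in R 4.3.3, 8 residual degrees of freedom). Each comparison was a contrast, with Benjamini-Hochberg adjustment over all 11963 genes and a threshold of 0.05. The model was also run on simulated data with independent noise on each array. Such noise holds no arrays that deviate together, so the run cannot speak to the deviating arrays here. Intervals cover 95%. With 2 arrays a group, the number of arrays limits the precision.

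The members and lists were chosen with earlier results of these data known. All members were named, the regulators and the passing members with the largest differences (up to 8 a comparison) by array, and of the other pathway lists up to 6 passing genes. DHDDS was named after its value was seen. Alternatives were quantile normalization, median centring, other probe set rules, a filter on low levels, trended and robust variances, fits on only the arrays compared, a replicate block, and arrays left out.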

Additional observations from a re-analysis of the deposited data

Results flagged for a closer look

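A difference between lines in the construct response, tested as an interaction in limma, marked 16 members, all with the LM24175 response below the MDA-MB-231 response. The log2 differences, LM24175 minus MDA-MB-231, were -2.59 for SCD, -1.46 for MSMO1, -1.39 for FASN, -1.32 for HMGCS1, -1.30 for DHCR7, -1.10 for LPIN1, -1.03 for INSIG1 and -0.94 for ACACA. They were -0.93 for LRP8, -0.92 for LSS, -0.90 for FDPS, -0.84 for SQLE, -0.84 for FADS2, -0.82 for SC5D, -0.68 for IDI1 and -0.64 for ELOVL6. FASN rests on 1 of its 2 probe sets, and SC5D and SQLE have a dimmer probe set that did not follow.

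The siRNA response differed between Hs606T and Hs343T for 12 members, by the labels, whose direction the RECK level goes against. Hs606T minus Hs343T was 1.06 for EBP, 0.97 for ACAT2, 0.94 for ACACA, 0.87 for ELOVL5, 0.79 for PMVK, 0.72 for DHCR7 and 0.66 for FASN. It was 0.56 for INSIG1, 0.42 for NSDHL, 0.40 for SC5D, 0.38 for FDPS and -0.99 for HMGCS1. ELOVL5, FASN, ACACA and INSIG1 have other probe sets that did not follow in Hs343T.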

How the results depend on the processing

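The count of members passing the construct response in MDA-MB-231 (5) was 8 with a trended, robust variance model, and with limma on only the arrays compared it was 0, with 13 at an unadjusted p below 0.05; fewer arrays there leave fewer degrees of freedom. Leaving out 1 array gave 0 to 11. In LM24175 (14) it was 3 on only the arrays compared and 9 to 15 with 1 array left out. For the response difference (16) it was 6 on only the arrays compared and 11 to 21. For the empty-vector difference (20) it was 11 on only the arrays compared and 12 to 17. In Hs606T (2) it was 0 with quantile normalization (10 unadjusted) and 0 with centred arrays (7 unadjusted). It was 1 with the mean of all probe sets, 1 with every probe set tested alone and 0 on only the arrays compared (11 unadjusted). The cause was not tested. With the mean of probe sets FASN differed by -0.21 between Hs606T and Hs343T labelled siSCR, against 0.05 with the brightest. In no other comparison did the count move by over 1.5 times under these settings.

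The replicate numbers did not pair the samples: gaps between the 2 arrays of a group correlated across 11963 genes at -0.015, -0.037, -0.050 and 0.011 between the paired groups of the 4 lines. The replicate block gave 0 in MDA-MB-231 (15 unadjusted), 10 in LM24175, 12 for the response difference, 17 for the empty-vector difference, 8 in Hs343T and 0 in Hs606T (7 unadjusted).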
